A study of Rattus norvegicus with 10 samples.

Results

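The epidermal growth factor family was followed in renal cortex RNA from PCK rats, as 6 ligand genes (*Egf*, *Tgfa*, *Hbegf*, *Areg*, *Ereg* and *Btc*) and 4 receptor genes (*Egfr*, *Erbb2*, *Erbb3* and *Erbb4*). These 10 genes were taken by symbol from the 32545 genes of the deposited FPKM table, and each symbol occurred in 1 row. PCK rats carry a mutation of *Pkhd1* and develop autosomal recessive polycystic kidney disease. The data came from 5 male and 5 female rats of the strain PCK/CrljCrl-Pkhd1pck/Crl, so the mutation was common to both groups and rats without it were not analysed here. The labels gave an age of 12 to 14 weeks and called the tissue kidney, whereas the methods of the study gave 10 to 12 weeks and snap-frozen cortex. The methods also state that they came from 2 litters without shared parents, and litter could not be set apart here because the labels do not give it for each animal.

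Ligands of this family are made as membrane-anchored precursors that proteases release from the cell surface. *Egf*, *Tgfa* and *Areg* encode ligands of the EGF receptor, whereas those encoded by *Hbegf*, *Ereg* and *Btc* also bind ErbB4. ErbB2 has no known ligand of its own and acts as a dimer partner, and ErbB3, a receptor of neuregulins, has a weak kinase and signals through its partners. In the kidney, *Egf* is made mainly in the thick ascending limb and the distal convoluted tubule. EGF receptor signalling has long been studied in cystic kidneys as a drive to epithelial proliferation.

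In the females, *Egf* was higher than in the males, and it was the only one of the 9 tested members past an adjusted p of 0.05. Its mean was 1.78-fold that of the males, and no female was as low as any male. *Areg* and *Egfr* had lower means in females, by 2.60-fold and 1.55-fold, but neither passed the test over all genes. *Erbb3*, the most abundant receptor transcript, differed by less than the spread between rats. *Ereg* was at the limit of detection in nearly every rat.

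The sequences just upstream of *Egf* and *Areg* are given because these genes had the largest differences of the family in each direction. Both are the 250 bases before the start site, 5′ to 3′ on the strand of the gene, from RefSeq on the build GRCr8. *Egf* lies there at chr2:220976298-220976547 on the minus strand, and *Areg* at chr14:17265642-17265891 on the minus strand. Capitals mark matches to the motifs searched.
Egf: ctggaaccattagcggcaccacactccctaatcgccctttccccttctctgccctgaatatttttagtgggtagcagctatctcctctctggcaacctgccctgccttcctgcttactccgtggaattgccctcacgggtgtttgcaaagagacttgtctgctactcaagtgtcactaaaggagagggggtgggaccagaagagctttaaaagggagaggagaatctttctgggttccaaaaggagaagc
Areg: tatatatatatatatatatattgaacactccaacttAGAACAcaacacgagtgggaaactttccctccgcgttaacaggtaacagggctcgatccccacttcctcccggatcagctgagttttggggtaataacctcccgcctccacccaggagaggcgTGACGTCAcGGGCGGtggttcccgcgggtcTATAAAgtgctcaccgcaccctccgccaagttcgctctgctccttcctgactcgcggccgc
Motifs were searched on both strands. The core promoter element bound by the TATA-binding protein, called the TATA box here, was taken with the letters TATAAA. The GC box, a site of Sp1 factors, was searched with the letters GGGCGG. The cyclic AMP response element was searched with the letters TGACGTCA, a palindrome. The AP-1 site, where Fos and Jun proteins bind, was searched with the letters TGANTCA. For androgen and glucocorticoid receptors only a half-site, a part of the full motif, was searched, with the letters AGAACA. For oestrogen and other nuclear receptors it was a half-site with the letters AGGTCA. The *Egf* window held none of the 6. The *Areg* window held the TATA box 61 bases before the start site, the GC box at 82 and the cyclic AMP response element at 91. It also held the androgen and glucocorticoid receptor half-site at 214, and these matches did not overlap. Of 33469 rat windows of the same length, 12.9% held the TATA box, 30.5% the GC box, 1.59% the cyclic AMP response element and 6.34% the AP-1 site. The androgen and glucocorticoid receptor half-site was in 17.5% and the half-site of oestrogen and other nuclear receptors in 14.1%. The GC content was 51.6% for *Egf* and 54.4% for *Areg*, against a median of 51.2% over all windows. In the other windows, *Egfr*, *Tgfa*, *Btc*, *Erbb2* and *Erbb4* each held a single match, to the GC box, and *Hbegf* held none. A match is a description of letters and not of binding, and windows were found for 8 of the 10 genes, *Ereg* and *Erbb3* being the exceptions.

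Expression was read as FPKM, fragments scaled by transcript length and by a factor for each library, which allows levels of different genes to be set side by side. Between 13912569 and 20285911 reads per rat fell on genes, with a median of 14387669 in males and 15896262 in females. Mitochondrial transcripts took 14.3% to 26.8% of them. Female 2 stood apart, with the highest mitochondrial share and a summed level of 5 urothelial genes of 14.3 FPKM, against 0.144 to 0.32 FPKM in the other rats, so results of the members that rest on it, and marker values that it moves by much, are also given without it. Differences are of females minus males on the log2(FPKM + 0.1) scale, tested with limma over the 17631 genes whose mean reached 0.1 FPKM, and this scale understates changes of low genes. Single genes also had a two-sided exact permutation test on FPKM, whose smallest possible p with 5 rats against 5 is 0.00794. Means are given with the SD over the 5 rats of a sex. Whole cortex was sequenced, so fewer cells of a type and less RNA per cell cannot be told apart.

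Over all 10 rats the level of *Egf* was the highest of the family, with a mean of 42.4 ± 13.8 FPKM (SD, n = 10), and that of *Erbb3* followed with 26.4 ± 4.27 FPKM. *Egf* was above *Erbb3* in 9 of 10 rats. *Erbb2* came next with 6.05 ± 1.18 FPKM and was below *Erbb3* in every rat. *Btc* was at 4.61 ± 0.879 FPKM, *Hbegf* at 3.71 ± 0.962 FPKM, *Egfr* at 2.56 ± 0.847 FPKM and *Erbb4* at 2.26 ± 0.601 FPKM. The lowest were *Tgfa* at 1.54 ± 0.786 FPKM, *Areg* at 1.23 ± 0.737 FPKM and *Ereg* at 0.0460 ± 0.0373 FPKM. Some neighbours in this order lay within each other's spread. *Btc* was above *Hbegf* in 8 of 10 rats, *Egfr* above *Erbb4* in 7 and *Tgfa* above *Areg* in 6. For that last pair the order differed between the sexes, since *Tgfa* was the higher in 5 of 5 females and in 1 of 5 males.

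**Figure D1:**
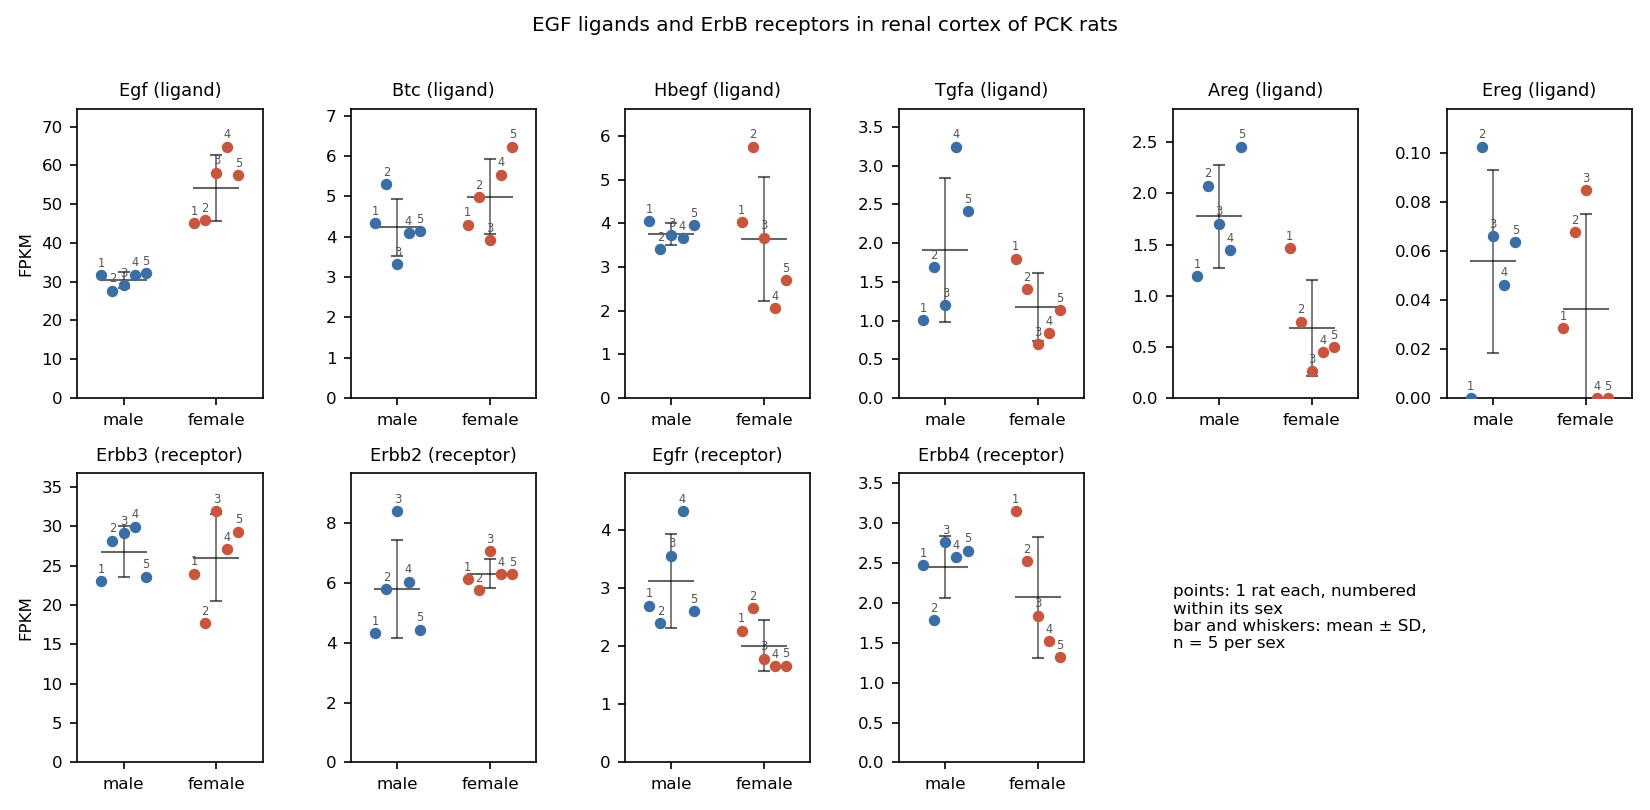
FPKM of the 6 ligands (upper row) and 4 receptors (lower row) in each rat, with males in blue and females in red. Each point is 1 rat, numbered within its sex, and the bar and whiskers are the mean ± SD of 5 rats. The *Egf* points of females, 45.1 to 64.9 FPKM, all lie above those of males, 27.7 to 32.2 FPKM, and the other 9 genes overlap between the sexes.

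*Egf* (ENSRNOG00000053979) is listed on chromosome 2 of Rnor_6.0 from 68820615 to 68895920, and it encodes the precursor of EGF. The males had 31.7, 27.7, 29.1, 31.9 and 32.2 FPKM in the order of their numbers, a narrow range with a coefficient of variation of 6.63%. The females had 45.1, 45.9, 58.1, 64.9 and 57.4 FPKM, so the ranges did not overlap, and females 1 and 2 lay nearest to the males. The means were 30.5 ± 2.02 FPKM in males against 54.3 ± 8.53 FPKM in females (exact permutation p = 0.00794, the smallest possible). On the log2 scale the difference was 0.82 with an SE of 0.11 (95% interval 0.58 to 1.06, limma adjusted p = 0.00233). These values rest on 1786 to 4882 reads per rat. *Egf* passed in 10 of 10 fits that each left out a rat, and without female 2 the difference was 0.87 (limma adjusted p = 0.00203).

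*Egf* was therefore 1 of 9 tested members called at an adjusted p of at most 0.05, where 2.4% of all genes tested were. With a log2 fold change of at least 1 also required, as in the methods of the study, 0 members were called, where 1.32% of all genes were. At an unadjusted limma p under 0.05, *Egf*, *Areg* and *Egfr* passed, as did 15.7% of all genes, and in the exact permutation test these 3 reached a p of 0.05 or less, as did 14.8% of all genes. The ranges of the sexes were separate for 1 member, *Egf*, and for 5.1% of all genes. Of the 9 members, 6 had a negative and 3 a positive log2 difference, with a median of −0.13.

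**Figure D2:**
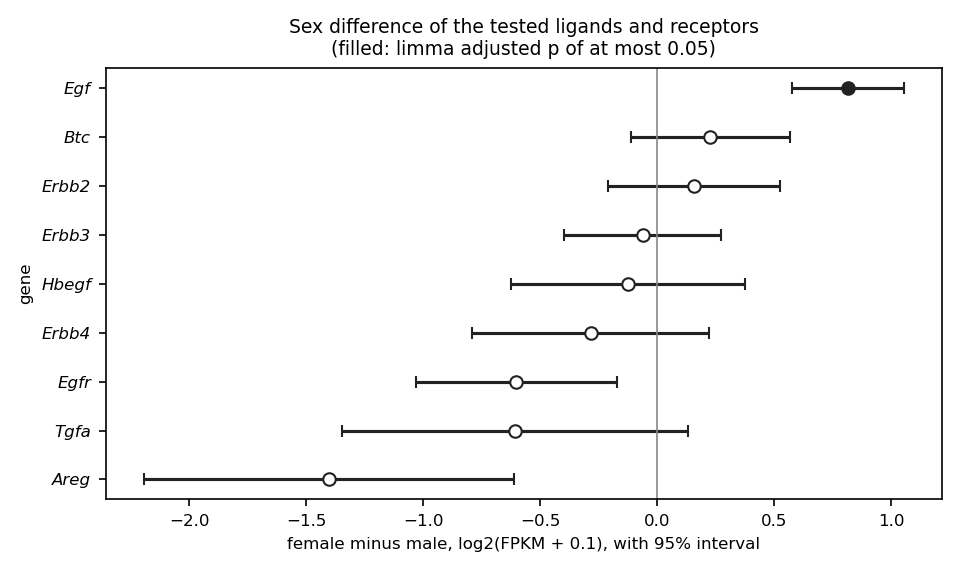
Difference between females and males on the log2(FPKM + 0.1) scale for the 9 members tested, with 95% intervals from limma, 5 rats per sex. The interval of *Egf* runs from 0.58 to 1.06, those of *Areg* and *Egfr* lie below 0 without passing the adjusted threshold (open points), and the other 6 include 0.

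Transcripts of the cells that make *Egf* were set beside it. Of 7 thick ascending limb markers, 0 were called higher and 1 lower in females, and 5 had a difference above 0. Their summed level was 1149 to 1659 FPKM in males against 1185 to 1844 FPKM in females. *Umod*, which encodes uromodulin, was at 985 ± 204 FPKM in males against 1265 ± 273 FPKM in females (log2 difference 0.35, limma adjusted p = 0.419). *Slc12a1*, the Na-K-2Cl cotransporter of this segment, was at 122 ± 19.5 and 155 ± 24.3 FPKM (0.35, limma adjusted p = 0.243). The marker called lower was *Ptger3*, a prostaglandin E2 receptor, at −0.62 (limma adjusted p = 0.0435), a call that held in 2 of 10 fits that left out a rat (without female 1 or female 2) and had an adjusted p of up to 0.099 in the others. *Umod* made up 79.0% of the summed level.

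All 5 tested markers of the distal convoluted tubule had a difference above 0, and 1 of them was called. This was *Calb1*, which encodes the calcium-binding protein calbindin and is also made in the connecting tubule. It rose to 281 ± 71.9 FPKM in females over 139 ± 29.5 FPKM in males (log2 difference 1.0, limma adjusted p = 0.0226). The call held in 5 of 10 fits that left out a rat and was lost without male 2, 3 or 4 or female 3 or 4. Over the 10 fits the difference was 0.90 to 1.13 and the limma adjusted p reached 0.066. *Slc12a3*, the NaCl cotransporter that defines the segment, was at 108 ± 25.5 FPKM in males against 149 ± 27.1 FPKM in females (0.47, limma adjusted p = 0.207). *Trpm6*, a magnesium channel known to respond to EGF, was at 4.69 ± 0.195 and 6.14 ± 0.861 FPKM (0.37, limma adjusted p = 0.118). The summed level of the list was 224 to 359 FPKM in males against 340 to 579 FPKM in females, and *Pvalb* is listed at 0 in every rat.

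Within each rat, *Egf* was divided by single genes of these segments, a choice made after their values were seen. *Egf* over *Umod* was 0.0317 ± 0.00457 in males and 0.0442 ± 0.00953 in females (exact permutation p = 0.0476). *Egf* over *Slc12a1* was 0.254 ± 0.0280 and 0.360 ± 0.0971 (exact permutation p = 0.0397). *Egf* over *Slc12a3* was 0.293 ± 0.0603 and 0.368 ± 0.0431 (exact permutation p = 0.0635), and *Egf* over *Calb1* was 0.225 ± 0.0364 and 0.201 ± 0.0455 (exact permutation p = 0.357). The sexes overlapped in all 4 ratios. The ratio of females to males was 1.39 for *Umod*, 1.42 for *Slc12a1*, 1.25 for *Slc12a3* and 0.891 for *Calb1*. These p-values are unadjusted and belong to ratios chosen with the values known, so nothing is rested on them, and the part of the number of distal cells in the difference of *Egf* was not tested.

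**Figure D3:**
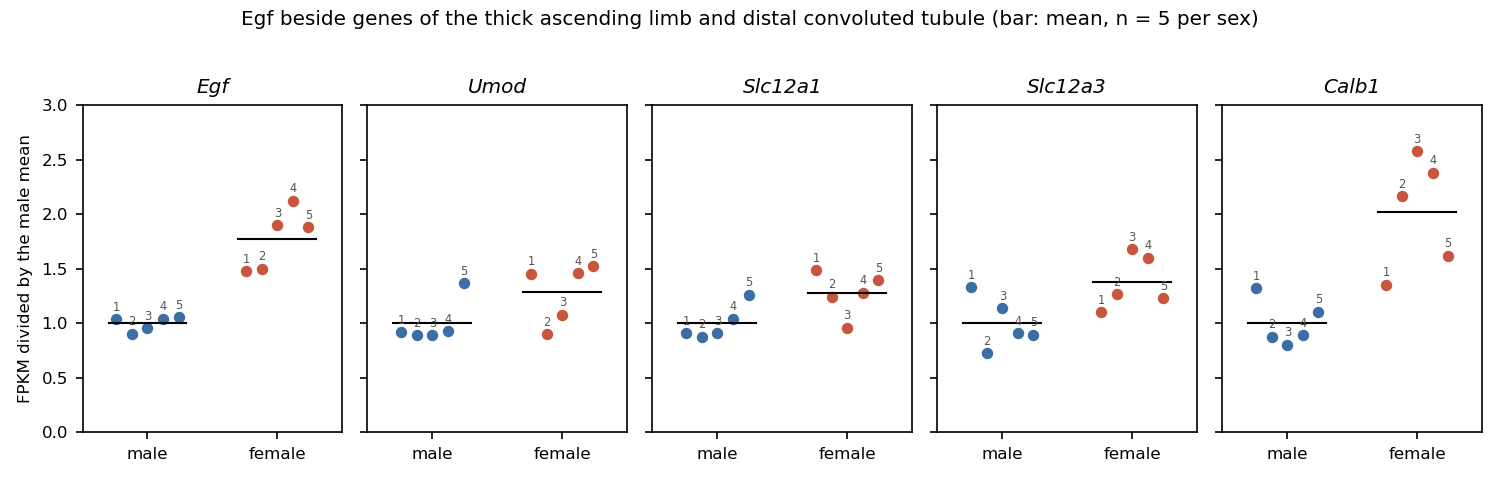
*Egf* and 4 genes of the thick ascending limb (*Umod*, *Slc12a1*) and distal convoluted tubule (*Slc12a3*, *Calb1*) in each rat, as FPKM divided by the mean of the 5 males. Points are rats numbered within their sex and bars are means. *Egf* and *Calb1* separate the sexes, and the other 3 genes overlap.

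Among the other ligands, *Areg* (ENSRNOG00000002754, chromosome 14, 18521930 to 18531179) encodes amphiregulin and had the largest difference of the family. The males had 1.19, 2.08, 1.70, 1.45 and 2.46 FPKM. The females had 1.46, 0.747, 0.260, 0.446 and 0.496 FPKM, so 4 of 5 females were below every male and female 1 lay among the males. The means were 1.78 ± 0.502 FPKM in males against 0.683 ± 0.470 FPKM in females (exact permutation p = 0.0238). The log2 difference was −1.40 with an SE of 0.36 (limma adjusted p = 0.0759). Few reads stand behind it, 21 to 44 in males and 5 to 28 in females. Female 1 decided the call, since without it the difference was −1.70 and passed (limma adjusted p = 0.0144), while without female 2 it was −1.48 (limma adjusted p = 0.0764).

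*Tgfa* (ENSRNOG00000016182, chromosome 4, 117962319 to 118046344), which encodes transforming growth factor alpha, varied widely among males, with a coefficient of variation of 48.3%. They had 1.007, 1.69, 1.20, 3.25 and 2.42 FPKM. The females had 1.80, 1.40, 0.698, 0.841 and 1.13 FPKM, and the sexes overlapped widely. The log2 difference of −0.61 (SE 0.34, limma adjusted p = 0.425) was within the spread between rats, and without male 4 it was −0.39.

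*Hbegf* (ENSRNOG00000018646, chromosome 18, 29329764 to 29340403), the gene of heparin-binding EGF-like growth factor, was nearly even among males at 4.05, 3.41, 3.73, 3.67 and 3.97 FPKM. In females it spread to both sides of the males, with 4.03, 5.76, 3.68, 2.06 and 2.70 FPKM. Its coefficient of variation was 6.74% in males and 38.9% in females, a difference in spread that was not tested. The means were 3.76 ± 0.254 and 3.65 ± 1.42 FPKM (log2 difference −0.13, SE 0.23, limma adjusted p = 0.847), and the sign turned to 0.05 without female 4. Without female 2, the highest rat, it was −0.31 (limma adjusted p = 0.389), and the exact permutation p was 0.206 instead of 0.921.

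*Btc* (ENSRNOG00000002728, chromosome 14, 18231860 to 18272484), which encodes betacellulin, was the second most abundant ligand. The males had 4.33, 5.30, 3.32, 4.09 and 4.14 FPKM and the females 4.30, 4.98, 3.91, 5.54 and 6.24 FPKM, so that 2 females lay above every male. Its log2 difference was 0.23 (SE 0.15, 95% interval −0.11 to 0.57, limma adjusted p = 0.525), and it was 0.15 without male 3 and 0.14 without female 5.

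*Ereg* (ENSRNOG00000002771, chromosome 14, 18576355 to 18591394), the epiregulin gene, had 0 to 4 reads per rat in males and 0 to 3 in females. A floor of 3 reads corresponds to 0.0694 to 0.102 FPKM for this gene, so it was too low to test and no fold change is given. On Rnor_6.0 it lies 45176 bases from *Areg*, and *Btc* lies 249446 bases from *Areg* on the other side, so genes of 1 cluster were at levels from the limit of detection to several FPKM.

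The receptors were led by *Erbb3* (ENSRNOG00000004964, chromosome 7, 2989340 to 3010350). The males had 23.0, 28.2, 29.1, 29.9 and 23.6 FPKM and the females 24.0, 17.7, 31.9, 27.1 and 29.3 FPKM. Female 2 was the lowest of all rats and female 3 the highest. The log2 difference was −0.06 (SE 0.15, 95% interval −0.40 to 0.27, limma adjusted p = 0.894), and it turned to 0.07 without female 2 (limma adjusted p = 0.779).

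*Erbb2* (ENSRNOG00000006450, chromosome 10, 86367596 to 86391728), the ligandless partner, was at 4.32, 5.78, 8.40, 6.03 and 4.43 FPKM in males. The females were close together at 6.12, 5.75, 7.06, 6.29 and 6.29 FPKM, all within the range of the males. Its log2 difference was 0.16 (SE 0.17, limma adjusted p = 0.708), from 0.07 without male 1 to 0.30 without male 3. Without male 3, the highest rat, the exact permutation p was 0.0317, against 0.532 with all rats, so this rat decided that test. A U6 small nuclear RNA lies inside the gene on the opposite strand with a mean of 0.287 FPKM, and whether reads were counted by strand is not stated.

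*Egfr* (ENSRNOG00000004332, chromosome 14, 99919485 to 100098796) encodes the receptor of EGF itself. The males had 2.70, 2.39, 3.55, 4.32 and 2.60 FPKM. The females had 2.26, 2.65, 1.78, 1.66 and 1.66 FPKM, so 4 of 5 females were below every male and female 2 lay among the males. The means were 3.11 ± 0.808 FPKM in males against 2.003 ± 0.438 FPKM in females (exact permutation p = 0.0238). The log2 difference was −0.60 (SE 0.19, 95% interval −1.03 to −0.17) and did not pass over all genes (limma adjusted p = 0.154). The exact p stayed at most 0.05 in 7 of 10 tests that left out a rat and was 0.0556 without female 3 and 0.0635 without female 4 or without female 5. Without female 2 the difference was −0.70 (limma adjusted p = 0.0806).

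*Erbb4* (ENSRNOG00000014248, chromosome 9, 75021790 to 75528644) encodes a receptor of neuregulins, betacellulin and heparin-binding EGF. The males had 2.47, 1.79, 2.76, 2.57 and 2.65 FPKM and the females 3.16, 2.53, 1.84, 1.52 and 1.32 FPKM. Female 1 had the highest value of all rats and females 4 and 5 the lowest. The log2 difference of −0.28 (SE 0.23, limma adjusted p = 0.613) was within that spread, and it moved to −0.45 without female 1 and to −0.15 without female 5.

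Summed over the 4 receptors, the level was 38.1 ± 5.23 FPKM in males against 36.4 ± 5.13 FPKM in females. *Erbb3* made up 61.8% to 76% of this sum in each rat, *Erbb2* 13.3% to 20.1%, *Egfr* 4.18% to 10.1% and *Erbb4* 3.43% to 8.88%. The 6 ligands summed to 42.3 ± 2.62 FPKM in males against 64.8 ± 6.98 FPKM in females. *Egf* was 68.8% to 75.0% of the ligand sum in males and 78.0% to 87.9% in females. Without *Egf* the other ligands came to 11.7 ± 1.35 and 10.5 ± 1.83 FPKM, with overlapping ranges. These sums include the genes described above and were not tested.

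**Figure D4:**
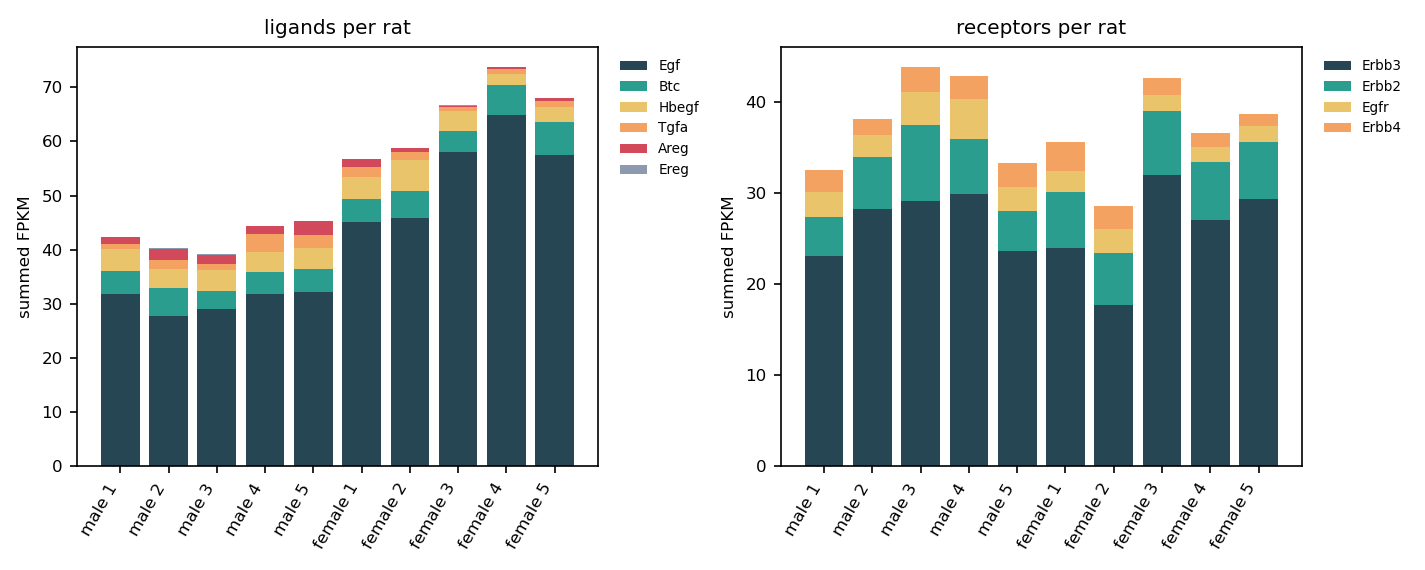
Stacked FPKM of the 6 ligands (left) and 4 receptors (right) in each rat, with bars starting at 0. *Egf* fills 68.8% to 87.9% of every ligand bar and *Erbb3* 61.8% to 76% of every receptor bar.

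The females differed among themselves along the same lines in several members. Females 1 and 2 were the highest 2 females for *Tgfa*, *Hbegf*, *Areg*, *Egfr* and *Erbb4*, that is for 5 of the 9 tested members, where 19.3% of all genes tested had this order. They were the lowest 2 females for *Egf*, *Erbb2* and *Erbb3*, an order that 21.1% of all genes had. This pair was picked out from the values of the members themselves, so nothing is read from these shares. Transcripts of injured tubules differed among females as well. The summed level of the injured tubule list was 6380, 5434, 4157, 1170 and 2565 FPKM in females 1 to 5, and 3995 to 7802 FPKM in males, of which 83.3% was *Spp1*, the osteopontin gene. *Havcr1*, the gene of kidney injury molecule 1, was at 55.2, 23.4, 24.8, 3.38 and 12.6 FPKM in the females and at 28.0 to 105 FPKM in the males, so by this gene female 2 was not above female 3. *Lcn2*, the lipocalin gene, was at 58.5, 83.9, 33.9, 5.85 and 20.8 FPKM in the females and 41.7 to 93.3 FPKM in the males. None of the 6 tested genes of the list was called between the sexes, and all 6 differences were below 0. The part of tubule injury in the levels of *Egf*, *Areg* or *Egfr* was not tested.

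Other cell type lists were read in the same way, against 424 calls over all genes, and the single calls in them were lost in most fits that left out a rat. For fibroblasts, 1 of 6 was called lower and all 6 were below 0. The gene called was *Col3a1*, a collagen, at −1.14 (limma adjusted p = 0.0477), a call kept in 3 of 10 such fits, those without female 2, 3 or 4 (adjusted p of up to 0.118 in the rest). *Col1a1* was at −0.87 (limma adjusted p = 0.0821) and passed without female 2 (0.0453). The sum was 250 to 337 FPKM in males against 84.3 to 245 FPKM in females, or 84.3 to 191 FPKM without female 2.

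Of the proximal tubule markers 1 of 7 was called higher, *Cubn*, which encodes cubilin, at 0.72 (limma adjusted p = 0.0467). The call held in 2 of 10 fits that left out a rat, those without female 2 or male 4. *Lrp2* was at 0.20, or 0.33 without female 2 and 0.10 without male 5. Of the 7 proximal markers, 4 had a difference above 0 and 3 below 0. *Aqp1* was among those below, at −0.56 (limma adjusted p = 0.233), or −0.35 without female 2. The sums were 1669 to 2962 and 1514 to 3077 FPKM, of which 52.6% was *Slc34a1*, at −0.03. Of the principal cell markers 1 of 6 was called higher, *Avpr2*, the vasopressin receptor gene, at 0.44 (limma adjusted p = 0.0469), and this held in 2 of 10 fits, those without female 2 or male 1. *Aqp2* was at 0.57, and the sums were 288 to 462 and 333 to 528 FPKM. Intercalated cell markers had 0 of 5 called and 5 of 5 above 0, with *Slc4a1* at 0.38 and sums of 147 to 227 and 227 to 347 FPKM.

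For macrophages and leukocytes, 0 of 7 were called and all 7 were below 0. The sums were 596 to 1036 FPKM in males against 508 to 1090 FPKM in females, or 508 to 817 FPKM without female 2, and 93.0% of them was *Cd74*. *Ptprc*, the gene of the leukocyte antigen CD45, was at −0.46, with −0.68 without female 2 and −0.23 without female 4. Endothelial (5 tested), podocyte (5), urothelial (4), adrenal (2) and adipocyte genes (1) had 0 called. *Kdr* was at 0.03, or −0.05 without female 2, *Nphs1* at 0.26 and *Adipoq* at 0.74. The 2 adrenal genes tested went in opposite directions. *Cyp11a1* was at −0.45, or −0.18 without female 1, on 1 to 13 reads per rat, and *Star* was at 0.30 on 3 to 13 reads. *Upk1b* was at 0.63 and at 0.14 without female 2. The endothelial sum was 79.3 to 101 FPKM in males against 78.4 to 129 FPKM in females, or 78.4 to 95.5 FPKM without female 2. Podocyte sums were 125 to 166 and 117 to 197 FPKM, and adrenal sums 0.580 to 0.848 and 0.506 to 0.784 FPKM. Adipocyte sums were 3.10 to 4.53 and 4.67 to 10.1 FPKM, or up to 7.16 FPKM without female 2. The defining markers of proximal and distal tubules, *Lrp2*, *Umod* and *Slc12a3*, were thus present in every rat of this tissue labelled kidney, adrenal genes were close to 0 in every rat, and urothelial genes in every rat but female 2.

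The rest of the pathway was read from lists of 67 symbols, of which 66 rows could be tested. At an adjusted p of at most 0.05, 0 of 66 were called by limma, and at an unadjusted p under 0.05, 2 were higher and 7 lower in females, against 1353 higher and 1422 lower, or 15.7%, of the 17631 genes tested. By the exact permutation test 10 of 66 reached a p of 0.05 or less, a share close to the 14.8% of all genes. The log2 difference was above 0 for 15 and below 0 for 51, with a median of −0.09, whereas over all genes tested 8599 were above and 9032 below 0, with a median of −0.01.

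Of the other ligands, *Nrg1*, the gene of neuregulin 1 and so of a ligand for ErbB3 and ErbB4, was the most abundant at 3.22 ± 0.612 FPKM in males against 3.15 ± 0.627 FPKM in females (log2 difference −0.04, limma adjusted p = 0.945). The sign of this small difference turned to 0.06 under quantile normalization. *Epgn* had at most 1 read and *Nrg3* at most 3 reads in any rat, so neither was tested. Of 7 sheddases and rhomboid partners, which release the ligands or steer the release, 6 had a difference below 0. *Adam9*, a metalloprotease, was at 29.5 ± 2.54 FPKM in males (27.8 to 34.0) and 24.0 ± 1.60 FPKM in females (22.1 to 26.4), and the sexes did not overlap. Its log2 difference of −0.29 (SE 0.08) did not pass (limma adjusted p = 0.0903), but it passed under quantile normalization (0.0433) and under scaling by total reads (0.0288). *Rhbdl2*, a rhomboid protease, was at 1.83 ± 0.455 and 1.09 ± 0.524 FPKM (−0.80, limma adjusted p = 0.288), on 6 to 38 reads per rat, and its difference was −0.48 without female 4.

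All 12 receptor inhibitors and ubiquitin ligases had a difference below 0, with a median of −0.15, and 0 were called. *Errfi1*, which encodes a direct inhibitor of EGF receptor kinase and is itself induced by EGF, was at 140 ± 54.3 FPKM in males (88.2 to 226) and 75.2 ± 8.42 FPKM in females (68.0 to 89.8). The log2 difference was −0.82 (SE 0.22, limma adjusted p = 0.0828, exact permutation p = 0.0159), and the ranges of the sexes overlapped only between 88.2 and 89.8 FPKM. It passed without male 3 (−0.97, limma adjusted p = 0.0411), under quantile normalization (0.0396) and under scaling by total reads (0.0456). *Socs3*, a suppressor of cytokine signalling, spread from 3.54 to 51.3 FPKM in females and from 29.5 to 46.2 FPKM in males (log2 difference −1.15, limma adjusted p = 0.357). Without female 4 its difference was −0.59 (limma adjusted p = 0.513), and without female 2 it was −1.54.

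Of 27 rows of adaptors and kinases, 9 were above and 18 below 0, with a median of −0.04. *Pik3r1*, a regulatory subunit of phosphoinositide 3-kinase, was at 28.1 ± 6.35 FPKM in males against 22.8 ± 9.26 FPKM in females (−0.37, limma adjusted p = 0.538), or −0.20 without female 4. *Gab1*, a docking protein downstream of the receptors, was at 14.8 ± 2.35 and 11.9 ± 1.09 FPKM (−0.30, limma adjusted p = 0.222). Of 17 genes that respond to or damp ERK signalling, 4 were above and 13 below 0. *Fos*, an immediate early transcription factor, was at 37.9 ± 15.4 FPKM in males against 20.3 ± 14.2 FPKM in females (−1.0, limma adjusted p = 0.235). Without female 2, *Fos* was at −1.34 and passed (limma adjusted p = 0.0362). *Egr1*, a further immediate early gene, was at 50.9 ± 20.9 and 31.4 ± 20.5 FPKM (−0.78, limma adjusted p = 0.378).

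**Figure D5:**
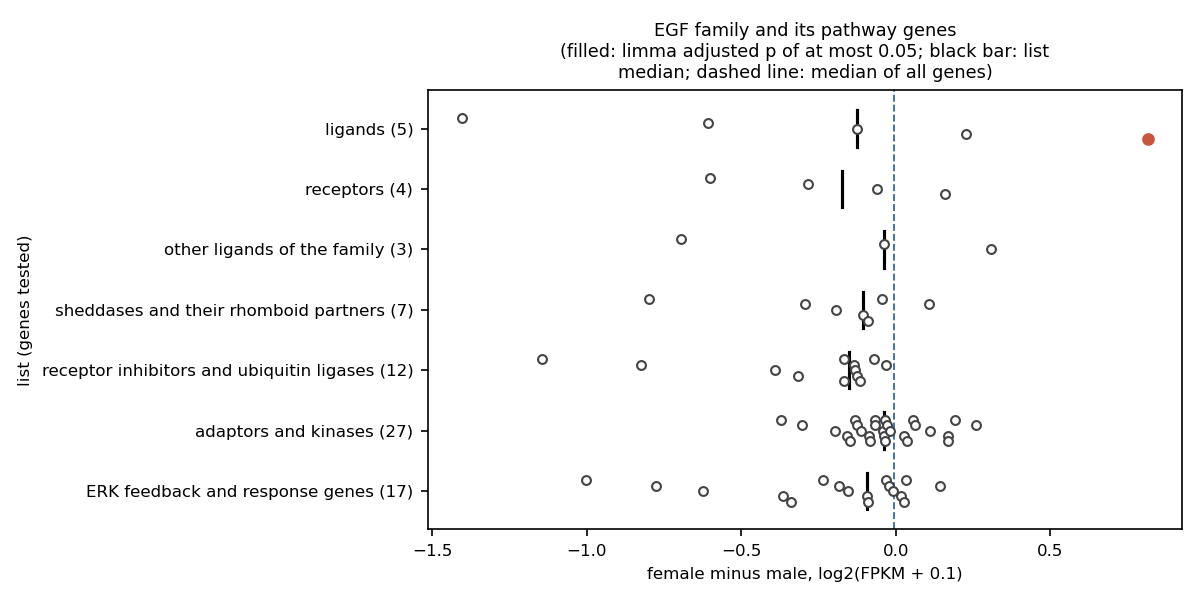
Difference between females and males on the log2(FPKM + 0.1) scale for each tested member (upper rows) and pathway gene (lower rows), 1 point per gene, with the list median as a black bar and the median over all genes, −0.01, as a dashed line. The only filled point, for a limma adjusted p of at most 0.05, is *Egf* at 0.82, and all 12 receptor inhibitors and ubiquitin ligases lie below 0.

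The genes whose levels went most closely with *Egf* and *Erbb3* from rat to rat were found after the mean of each sex was subtracted, over 10 rats and 13362 genes whose mean reached 1 FPKM. For *Egf* these included SNORA40 (Pearson r = 0.93, Spearman rho = 0.97), *Msh5* (0.91, 0.78), *Slc44a3* (0.91, 0.90) and *Lrrc47* (0.90, 0.81). Without females 1 and 2, the farthest rats, the r of these 4 lay between 0.78 and 0.87. For *Erbb3* they were *Itga7* (0.96, 0.99), *Cep78* (0.96, 0.89), *Lpar2* (0.96, 0.87), *Pfkfb2* (0.94, 0.90) and *Dtx3* (0.94, 0.93), with r between 0.82 and 0.91 without female 2 and male 1. These are among the highest of 13362 values and are given as a description. Of those for *Egf*, SNORA40, with a mean of 1.31 FPKM, and *Msh5* lay close to the limit of 1 FPKM. The reads behind SNORA40 and *Msh5* were not examined, so counting error in their r was not assessed.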

How the data were processed

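The 10 libraries are of renal cortex from PCK rats, 5 of each sex and 1 per animal, and samples were grouped by the sex in the labels. Per the study's methods, a sequencing provider mapped the reads with HISAT2 to Rnor_6.0, and the authors deposited FPKM per gene in 1 table. The submitters' processing notes also list fastp, featureCounts 1.5.0-p3, StringTie 1.3.3b and HISAT2 2.0.5, without their roles. Whether counting used strand is not given in the sources used here. The authors tested counts with DESeq2, and neither their counts nor their tests were used.

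Reads were recovered from the steps between FPKM values at each deposited gene length, which gave whole reads for 100% of values (tolerance 0.01) and so the reads behind each value. Limits of detection were set at 3 reads and cover counting error only, since PCR copies of a molecule were not told apart. The median-ratio factor was 1.008 in all 10 libraries, so the deposited values were already level by this measure, and libraries were compared as deposited. The library size implied by the FPKM steps was not the number of reads on genes. It was 17691400 against 19556707 in female 4 and 15435700 against 14387669 in male 1.

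The values are not counts, so limma 3.58.1 (R 4.3.3, trend) was fitted to log2(FPKM + 0.1) over all genes with mean FPKM of 0.1 or above, with Benjamini-Hochberg adjustment over 17631 genes. Exact permutation tests were two-sided and unadjusted, and took every split of the rats with numpy 2.4.6 and pandas 2.3.3 under Python 3.11.15. The limma fit and the exact test were both tested on simulated data, the exact test against the permutation test of scipy 1.17.1.

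The members and lists were chosen with earlier results of these data known. Named were all members, the 2 genes of each pathway list with the largest change among those with a mean of 1 FPKM or more, the 5 genes most like *Egf* and *Erbb3* (1 of those for *Egf* is not reported here), and the defining marker of each cell type. Other marker genes and the ratios of *Egf* were chosen after their values were seen. *Grb2* is listed under 2 identifiers, and *Pecam1* and *Cyp11b1* were not matched. Alternatives were leaving out each rat, the replicate number as a block, median-ratio and quantile scaling, limma-voom on reads, other pseudocounts (1 and 0.01) and other filters (none, or 1 FPKM). Scaling by total reads was chosen after seeing the data.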

Additional observations from a re-analysis of the deposited data

How the results depend on the processing

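*Egf* passed the adjusted threshold in all 18 alternatives that could change it, with log2 differences of 0.74 to 0.88 and adjusted p-values of 0.00119 to 0.0141. Members past both thresholds numbered 0, and 0 to 1 when a rat was left out. At the adjusted p alone there was 1 member, and 1 to 2 when a rat was left out, the addition in each case being *Areg* without female 1. Of the pathway genes 0 passed, 2 passed under quantile normalization and 2 under scaling by total reads (*Adam9* and *Errfi1* both times), and 0 to 1 when a rat was left out. These were *Errfi1* without male 3 and *Fos* without female 2. Members with an exact permutation p of 0.05 or less numbered 3, and 2 to 4 when a rat was left out. Small differences changed sign in 5 of 324 alternatives over 18 genes. *Hbegf* ranged from −0.31 to 0.052 and *Erbb3* from −0.14 to 0.070 when a rat was left out, and *Nrg1* ranged from −0.13 to 0.069 and was at 0.057 under quantile normalization. The causes were not tested. Median-ratio scaling is not counted, since its factor was the same in every library. Scaling by total reads moved the median of all genes to −0.08.

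The replicate numbers did not pair the samples, since correlations of same-numbered rats were −0.10 to 0.07 and 1 of 5 males was closest to the female of its own number. With the replicate block, 231 genes were called over the whole table instead of 424, 1 member (*Egf*, adjusted p = 0.0141) and 0 pathway genes. The paired permutation test of 5 pairs cannot go below 0.0625 and was not run. With limma-voom on recovered reads 504 genes were called, 1 member (*Egf*, adjusted p = 0.00170) and 0 pathway genes, with an adjusted p of 0.0554 for *Areg*. Depth limits *Areg* (5 to 44 reads), *Rhbdl2* (6 to 38) and *Ereg* (0 to 4).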
